A study of Homo sapiens with 4 samples.

Results

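The proteins described here decide how long mRNAs with AU-rich elements survive. The series names 6 of them, ZFP36, ZFP36L1, ZFP36L2, KHSRP, HNRNPD and ELAVL1. They were measured with 8 of the 26423 probes on the array, found by the gene symbol that the platform annotation gives each probe. ELAVL1 and HNRNPD had 2 probes each, and the other 4 genes had 1 each. The 6 genes were proposed with the berberine-minus-control differences of these samples already known, so those differences are given as a description, without a test.

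AU-rich elements are short stretches of A and U in the 3′ untranslated end of many mRNAs for growth factors, cytokines and immediate early proteins. The ZFP36 proteins bind them through a pair of CCCH zinc fingers and bring in the CCR4-NOT deadenylase, after which the mRNA is decapped and degraded from its 5′ end or taken up by the exosome from its 3′ end. KHSRP and HNRNPD bind the same class of elements and mostly favour decay, whereas ELAVL1, also called HuR, mostly stabilises the mRNA. In mouse liver, ZFP36L1 is known for limiting the mRNA of the bile acid enzyme Cyp7a1. The p38 and MK2 kinases phosphorylate ZFP36, which then binds 14-3-3 proteins and loses activity.

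Total RNA was profiled on 4 arrays, 2 of HepG2 cells given berberine and 2 of control HepG2 cells without it. HepG2 is a human hepatocellular carcinoma line, and berberine is a plant alkaloid. Both groups were grown in DMEM with fetal bovine serum, and the source and treatment labels give 26.95 µM berberine for 24 hours. The titles name the cells and the group, without dose or time. The description label differs. It gives an MDI differentiation protocol of 48 hours for all 4 samples, with 13.47 µM berberine in the berberine samples, and this conflict was not resolved.

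The labels do not say whether replicates were separate cultures. The p-values therefore rest on the spread among these 4 samples alone, part or all of which may be technical. The annotation names 528 genes as OLFR, the mouse olfactory receptors, so each gene name here is that of a mouse probe, while the labels name human cells. How well each mouse probe reads the human mRNA was not tested. The deposited intensities had medians of 77 and 85 in berberine samples 1 and 2, against 90 and 62 in controls 1 and 2. Control 2 held 269 values below 0, and the other samples held at most 11. A mark for background signal was set at the 95th percentile of these OLFR genes, 9.24 on the log2 scale, and 1626 of 17778 genes had means above it. Of 11 measured hepatocyte markers only CEBPA lay above that mark, and the probes named ALB and AFP had means of 8.35 and 4.75. CEBPA was listed under hepatocytes only, and its signal alone does not name a cell type. None of the 9 adipocyte, 7 fibroblast, 4 macrophage, 5 endothelial and 4 lymphocyte markers lay above it. The label of a liver line thus had little marker signal behind it on this array. The summed linear signal of the 11 hepatocyte markers was 2233 and 2512 in berberine samples, against 5618 and 5199 in controls. CEBPA carried that gap, and the other 10 summed to 1154 and 1498 in berberine samples, against 1544 and 1507 in controls. The 4 lymphocyte markers summed to 958 and 996 in berberine samples, against 1458 and 2491 in controls. CD79A gave 370 and 300 of these in berberine samples, against 581 and 1627 in controls. The fibroblast sums were 505 and 500 in berberine samples, against 412 and 426 in controls. The macrophage sums were 712 and 699 in berberine samples, against 599 and 574 in controls. For the adipocyte markers the sums were 978 and 981 in berberine samples, against 1020 and 1087 in controls. The part of these signals in the results was not tested. With RNA from whole cultures, fewer cells of a type and less RNA per cell cannot be told apart.

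ZFP36L1 was the ZFP36 gene whose probe differed most between the groups. Its promoter windows are shown for the regulatory letters at its starts, beside that of ZFP36, whose probe was dim. ZFP36L1 lies on chromosome 14 (68787655 to 68796243, GRCh38.p14) and has 2 annotated starts, 2827 bases apart. The inner window is chr14:68793417-68793666 and the outer one chr14:68796244-68796493, both on the minus strand. ZFP36 lies on chromosome 19 (39406847 to 39409407), and its window is chr19:39406597-39406846 on the plus strand. Each window holds the 250 bases before the start, 5′ to 3′ on the gene's strand, from RefSeq, with motif matches in capitals.
ZFP36L1, inner start: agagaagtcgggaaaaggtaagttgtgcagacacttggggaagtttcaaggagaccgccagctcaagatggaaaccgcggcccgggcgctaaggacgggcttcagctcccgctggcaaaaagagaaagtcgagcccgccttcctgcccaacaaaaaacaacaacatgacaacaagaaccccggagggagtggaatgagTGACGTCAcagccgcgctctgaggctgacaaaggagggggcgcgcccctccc
ZFP36L1, outer start: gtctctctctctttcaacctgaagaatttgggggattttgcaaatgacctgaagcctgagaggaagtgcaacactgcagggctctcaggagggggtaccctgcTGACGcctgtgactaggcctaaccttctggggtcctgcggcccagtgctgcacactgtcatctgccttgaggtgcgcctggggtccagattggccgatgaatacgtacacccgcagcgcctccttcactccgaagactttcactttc
ZFP36, start: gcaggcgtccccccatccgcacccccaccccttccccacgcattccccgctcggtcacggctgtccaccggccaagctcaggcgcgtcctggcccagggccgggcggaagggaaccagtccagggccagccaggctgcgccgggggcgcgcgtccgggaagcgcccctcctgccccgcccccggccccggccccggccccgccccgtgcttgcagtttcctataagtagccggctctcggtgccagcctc

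The motifs were chosen with earlier results on EGR1 and FOS known, and were searched on both strands. They were the cAMP response element TGACGTCA, its part TGACG, the AP-1 site TGANTCA, the EGR1 site GCGNGGGCG and the CArG box of serum response factor. The inner ZFP36L1 window held TGACGTCA, which contains TGACG on each strand, beginning 52 bases before the start. That element was in 1.65% of 35116 promoter windows of this length. The outer ZFP36L1 window held TGACG alone, beginning 147 bases before the start, and TGACG was in 21.2% of windows. The ZFP36 window held none of the 5 motifs. The AP-1 site, the EGR1 site and the CArG box, in 6.57%, 8.41% and 1.16% of windows, were in none of these 3 windows. Of the other members, KHSRP and HNRNPD had a window in the table and held TGACG once each. A match here is a run of letters and not a tested binding site.

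The probe named ZFP36L1 gave about 3 times the signal in berberine samples that it gave in controls. Its deposited intensities were 22549 and 27599 in berberine samples 1 and 2, against 9232 and 7674 in controls 1 and 2. Both berberine values exceeded both control values, as they did after quantile normalisation, where they were 14.56 and 14.60 in berberine samples and 12.98 and 13.00 in controls on the log2(value + 1) scale. The means were 14.58 ± 0.03 in berberine samples and 12.99 ± 0.01 in controls (SD, n = 2 each), a log2 difference of 1.59, or 3.01-fold. Within its own array the probe ranked 25th and 24th by intensity in berberine samples and 89th and 87th in controls, among 26423 probes. A rank needs no scaling between arrays. Among the other 1625 genes above the background mark, 16 had a more positive difference.

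ZFP36 itself, the tristetraprolin that gives the family its name, gave a dim probe. Its intensities were 133 and 148 in berberine samples, against 181 and 110 in controls. The berberine values lay between the control values, so the groups overlapped. The means were 7.16 ± 0.03 in berberine samples and 7.15 ± 0.23 in controls, a log2 difference of 0.01, which became -0.01 on the deposited scale and -0.12 after median centring.

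ZFP36L2, the third member of the family in human cells, also gave a dim probe. Its intensities were 39 and 37 in berberine samples, against 39 and 11 in controls. Among these deposited intensities control 2 alone was low. By rank within its own array the probe stood 21535th and 21817th in berberine samples and 23468th and 23976th in controls. After normalisation the groups did not overlap, with means of 5.11 ± 0.05 in berberine samples and 4.79 ± 0.15 in controls and a log2 difference of 0.32. The difference was 0.83 with values as deposited and 0.12 with 50 added before the logarithm, so its size depended on the scaling. All values of ZFP36 and ZFP36L2 lay below the background mark, where a small or absent difference in signal does not show that the mRNA did not differ.

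**Figure D1:**
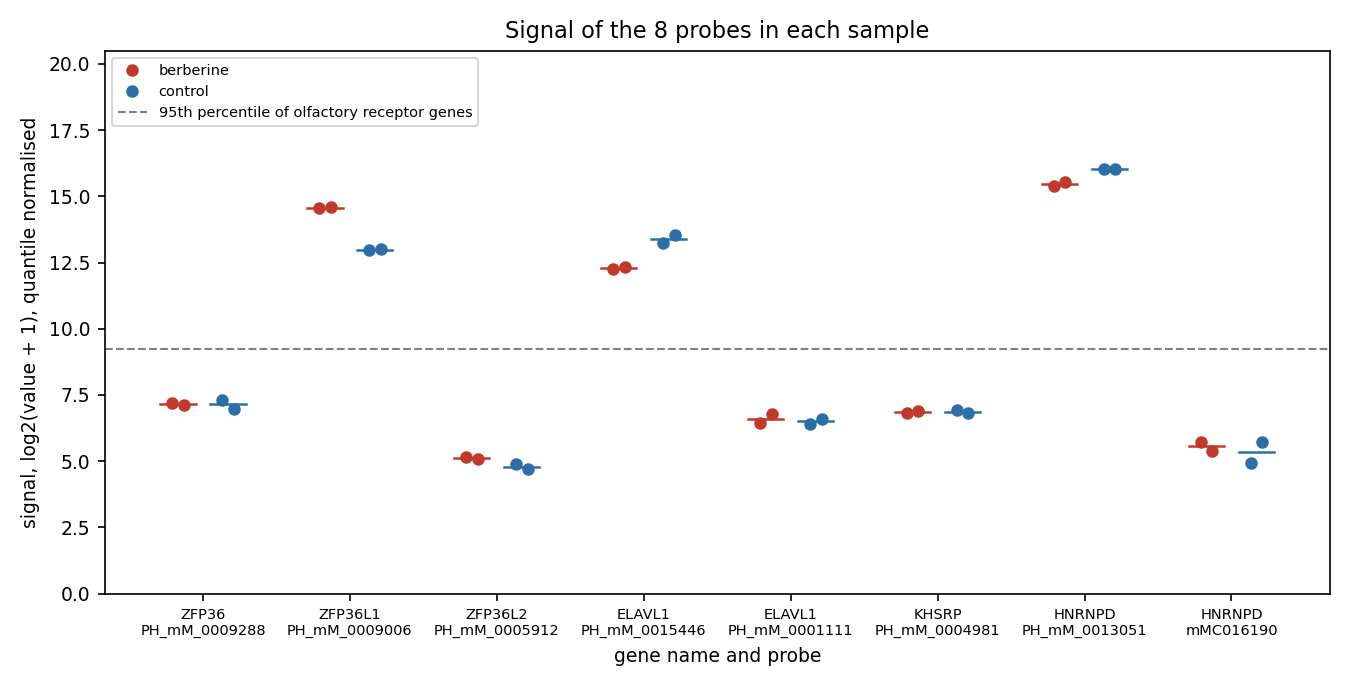
Signal of the 8 probes on the log2(value + 1) scale after quantile normalisation (y axis), by gene name and probe (x axis). Points are single samples, 2 per group, horizontal bars are group means, and the dashed line is the 95th percentile of olfactory receptor genes, 9.24. Only the ZFP36L1 probe and 1 probe each of ELAVL1 and HNRNPD lie above the line, with ZFP36L1 higher in berberine samples and the other pair lower.

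HNRNPD, or AUF1, is an RNA-binding protein that mostly promotes decay of AU-rich mRNAs. Its bright probe PH_mM_0013051 read 40269 and 48229 in berberine samples, against 69068 and 59469 in controls. Both berberine values lay below both control values. The normalised means were 15.47 ± 0.12 in berberine samples and 16.03 in controls, a log2 difference of -0.57, so that controls were 1.48-fold higher. The probe ranked 2nd on both control arrays, so quantile normalisation gave both controls the same value, and their SD of 0 says nothing about replicate spread. It ranked 6th and 5th on the berberine arrays. Among the other 1625 genes above the background mark, 104 had a more negative difference.

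The second HNRNPD probe, mMC016190, was dim. It read 57 and 45 in berberine samples, against 40 and 34 in controls. Its normalised means were 5.56 ± 0.24 in berberine samples and 5.33 ± 0.56 in controls, and the groups overlapped, with a log2 difference of 0.23. The dim probe did not show the lower signal of the bright one.

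KHSRP, a KH-domain protein that recruits decay enzymes, was measured by 1 dim probe. It read 106 and 124 in berberine samples, against 137 and 93 in controls. The berberine values lay between the controls, and the log2 difference was -0.02, with means of 6.85 ± 0.05 in berberine samples and 6.87 ± 0.09 in controls. It was 0.02 on the deposited scale and -0.09 after median centring.

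ELAVL1, the stabiliser among the 6, had its bright probe lower in berberine samples. That probe, PH_mM_0015446, read 4305 and 5336 in berberine samples, against 11514 and 10855 in controls. Each berberine value was under the lower control value. The means were 12.30 ± 0.04 in berberine samples and 13.40 ± 0.20 in controls, a log2 difference of -1.10, so that controls were 2.14-fold higher. The probe ranked 155th and 149th in berberine samples and 71st and 57th in controls, and 30 of the other 1625 genes above the background mark had a more negative difference. The second ELAVL1 probe, PH_mM_0001111, read 79 and 114 in berberine samples, against 98 and 81 in controls. It was dim, its groups overlapped, and its log2 difference was 0.09.

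In all, the groups did not overlap for 4 of the 8 probes, 2 higher and 2 lower in berberine samples. Over all 17778 genes, 45.0% did not overlap, 21.7% higher and 23.3% lower. The median log2 difference was 0.05 over the 8 probes and -0.01 over all genes. Nothing is read from these shares, since the genes were proposed from this contrast.

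**Figure D2:**
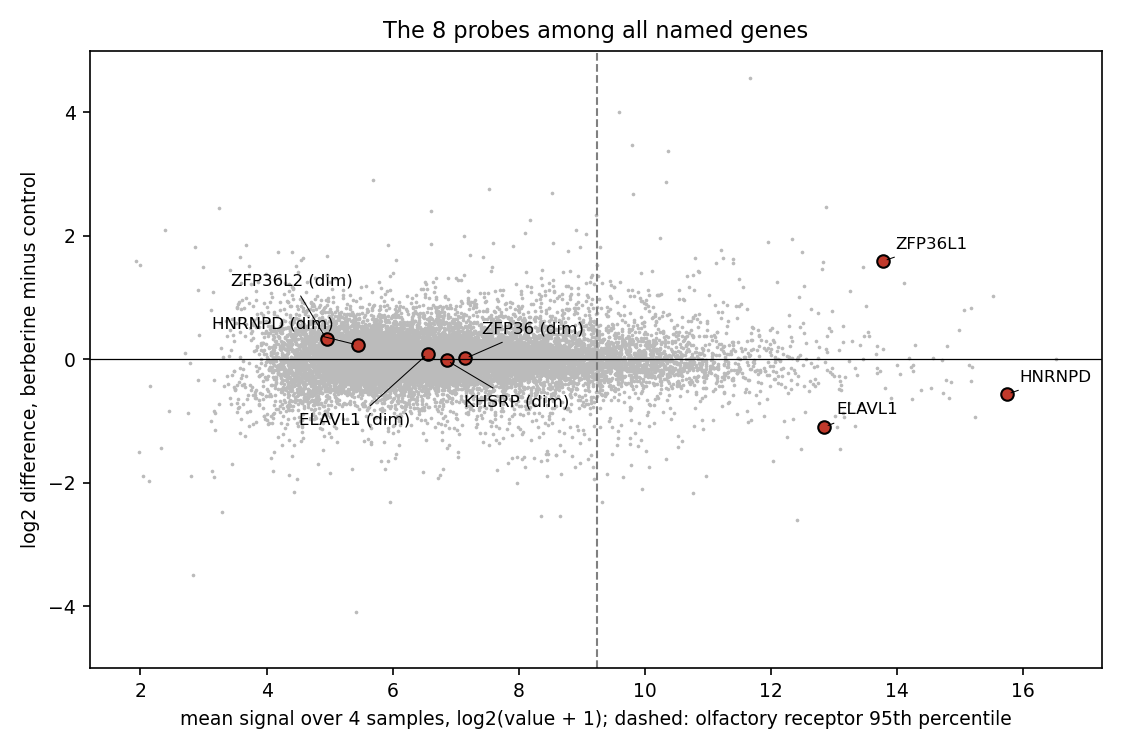
Log2 difference, berberine minus control (y axis), against the mean signal over the 4 samples (x axis) for the 17778 named genes (grey) and the 8 probes (red). The 3 bright probes stand at 1.59 (ZFP36L1), -1.10 (ELAVL1) and -0.57 (HNRNPD), and the 5 dim ones between -0.02 and 0.32. A single gene lies outside the plotted range.

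The bright probes were also set against each other on the same array, which removes any scaling between arrays. The log2 ratio of the ZFP36L1 probe to the bright ELAVL1 probe was 2.39 and 2.37 in berberine samples, against -0.32 and -0.50 in controls. It was thus 2.79 higher in berberine samples, with a pooled replicate SD of 0.09. The log2 ratio of ZFP36L1 to HNRNPD was -0.84 and -0.81 in berberine samples, against -2.90 and -2.95 in controls, a difference of 2.11. The log2 ratio of ELAVL1 to HNRNPD was -3.23 and -3.18 in berberine samples, against -2.58 and -2.45 in controls, a difference of -0.68. The 3 signals moved unequally on these arrays. A ratio of different probes does not give the ratio of their mRNAs, and it does not say which of them changed.

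**Figure D3:**
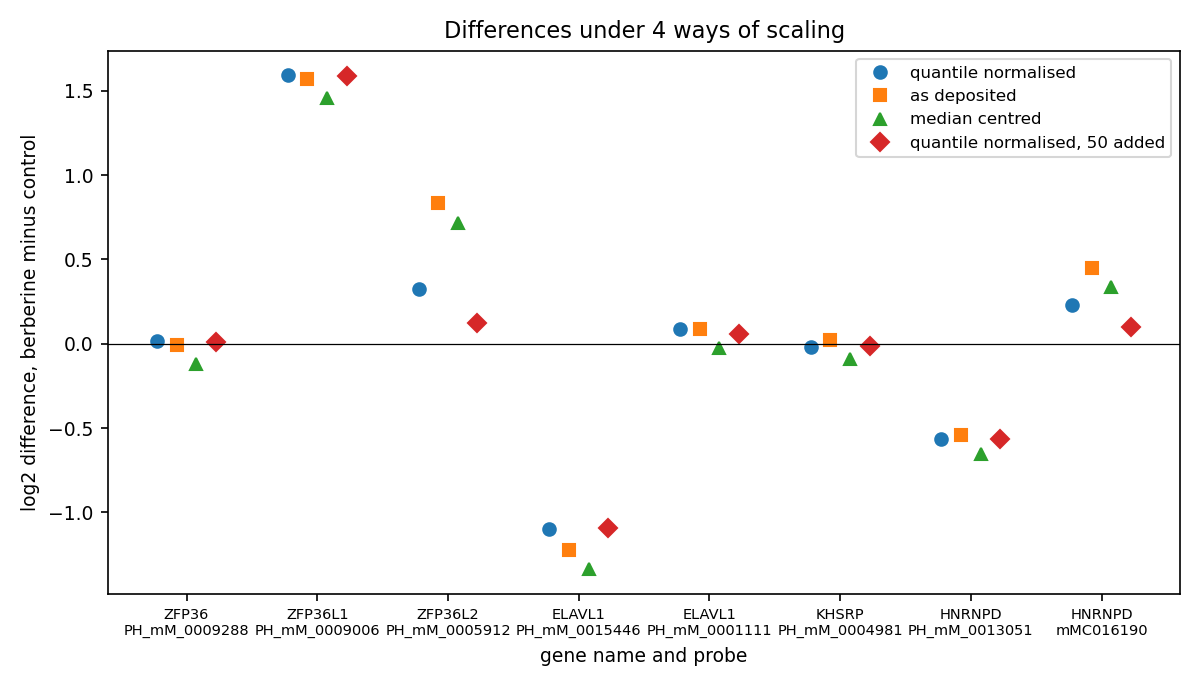
Log2 difference, berberine minus control (y axis), of each probe (x axis) with quantile normalised values, values as deposited, median-centred values and quantile normalised values with 50 added. ZFP36L1 stays between 1.45 and 1.59, the bright ELAVL1 probe between -1.33 and -1.09 and the bright HNRNPD probe between -0.65 and -0.54, whereas ZFP36, KHSRP and the dim ELAVL1 probe change sign.

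The genes whose values over the 4 samples ran most like those of ZFP36L1 were sought by the Euclidean distance between log2 values centred on each gene's own mean, among 8884 genes above the median signal. The nearest were EPC1, a subunit of a histone acetyltransferase complex, at a distance of 0.08, VEGFA, the vascular growth factor, at 0.08, and CEBPB, a transcription factor, at 0.09. Their log2 differences were 1.64, 1.64 and 1.58. In all 24 genes lay within 0.3 of ZFP36L1. For ZFP36 there were 4167 such genes and for ZFP36L2 2111, so a likeness to either of these separates few genes. The nearest to ZFP36 were APLP2, DAND5 and ACTN2, and the nearest to ZFP36L2 were GZMM, E2F3 and MRPS31. With 4 samples this is a description of shape only.

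The mRNAs known as AU-rich targets of ZFP36 proteins were examined next, to see how their signals ran in the same samples. The list held 40 genes, of which 35 were measured, ZFP36 itself among them. FOS, the AP-1 partner of JUN, rose in signal, with both berberine values at 7.80, against 5.44 and 5.38 in controls (log2 difference 2.40, SE 0.11, limma adjusted p = 0.0474). It was the 1 list member that passed limma without a trend, where 9 of 17778 genes, or 0.0506%, passed, 0.0450% higher and 0.00562% lower. All its values lay below the background mark, and those of the controls below the olfactory receptor median of 6.05. The FOS difference is therefore one of signal and not a measured fold of the mRNA. Quantile normalisation gave both berberine samples the same FOS value, so their lack of spread says nothing about replicate spread. The SE and the adjusted p of FOS draw on that lack of spread. The call was lost when any 1 of the 4 samples was left out, with values as deposited, with median centring, with each probe as its own row and with the replicate block (limma adjusted p from 0.00547 to 0.638 over 12 alternative fits).

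When limma's variance was allowed to follow intensity (the trend test), 9 of the 35 targets passed, 7 higher and 2 lower, where 1.46% of all genes passed, 0.962% higher and 0.501% lower. The list was written with several of these genes known to differ, so it is no independent evidence of a direction. Of the 9, 5 had means above the background mark. LIF, a cytokine of the interleukin-6 family, gave a 7.36-fold higher signal in berberine samples. It read 11.73 and 11.82 there, against 9.15 and 8.64 in controls (limma trend adjusted p = 0.00871, without the trend 0.0771). Both control values lay below the background mark, so this is a difference of signal and not a measured fold of the mRNA. PLK3, a stress-response kinase, rose 3.85-fold, with 13.37 and 13.25 in berberine samples and 11.33 and 11.39 in controls (limma trend adjusted p = 0.00429). Both genes had groups that were far apart next to the spread of their replicates.

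VEGFA rose 3.12-fold (log2 difference 1.64, limma trend adjusted p = 0.00489) and CEBPB 2.99-fold (1.58, 0.00547). E2F1, a factor of S phase entry, fell by 1.42 on the log2 scale, with 9.72 and 9.91 in berberine samples and 11.05 and 11.42 in controls (limma trend adjusted p = 0.0286). The targets moved both ways.

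Below the background mark, the chemokine CCL20 and the early-response gene IER3 rose by 1.84 and 1.66 in the trend test, and PLAU, the urokinase protease, fell by 1.75 (limma trend adjusted p = 0.00577, 0.0265 and 0.0487). For the 9 genes the limma adjusted p ran from 0.00429 to 0.992 over 12 alternative fits each. The remaining 3 bright targets did not pass either test. IFNG was at 0.51, IL1B at 0.48 and CCND3 at -0.33, with a dim second CCND3 probe at -0.04. The other targets, among them the best known ZFP36 target TNF at -0.04 and IL6 at 0.17, passed neither test. The median log2 difference was 0.06 over the 35 targets and -0.01 over all genes.

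**Figure D4:**
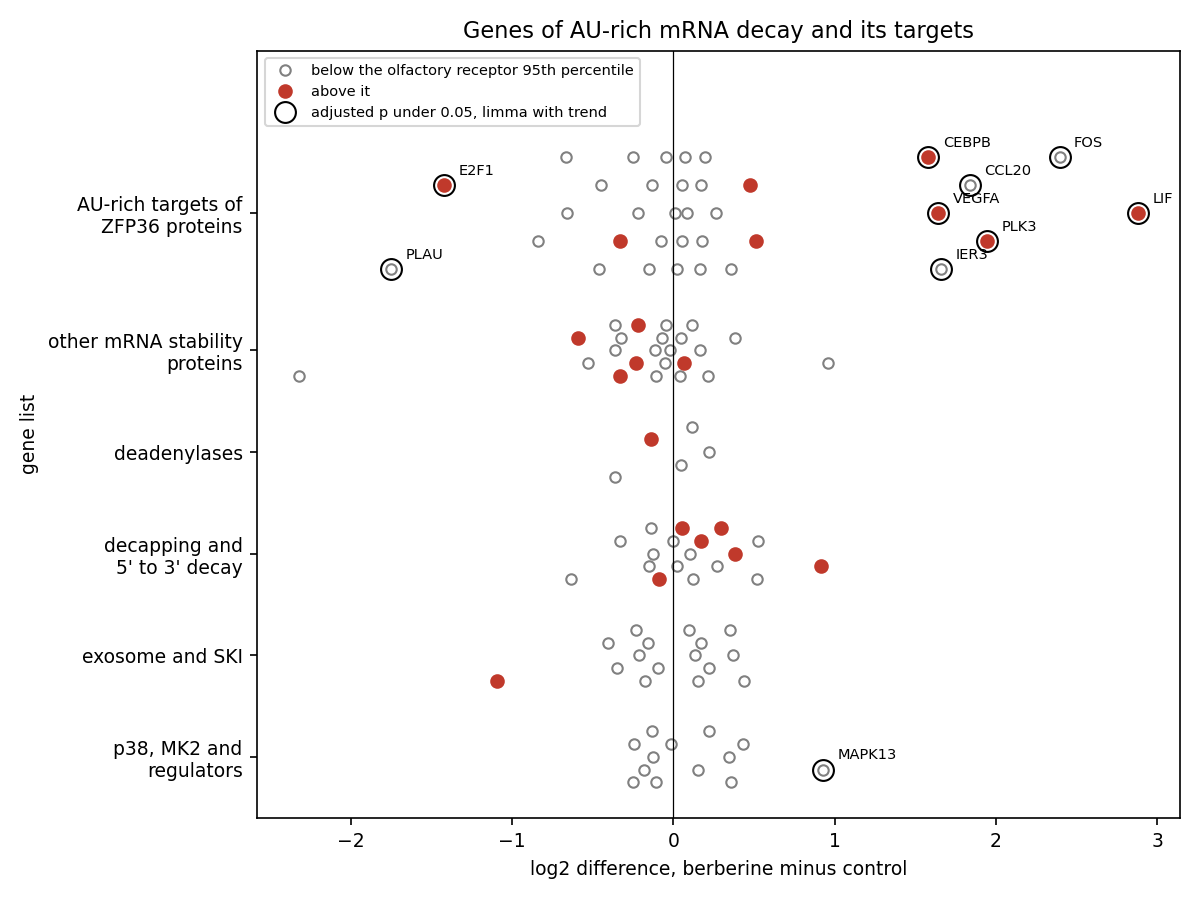
Log2 difference, berberine minus control (x axis), of the measured genes in 6 lists (y axis, vertical spread within a list has no meaning). Filled points lie above the olfactory receptor 95th percentile, and rings mark an adjusted p under 0.05 in limma with an intensity trend. Of the targets 9 are ringed, on both sides of 0, and of the other lists only MAPK13 is.

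The machinery that acts after the ZFP36 proteins was compared list by list, and no measured member of it passed limma, with or without the trend. For CCR4-NOT, PAN2-PAN3 and PARN, which shorten the poly(A) tail, 5 of 15 genes were measured, and the other 10 were not analysed here. Among the genes named CNOT only CNOT9 was measured, so most of CCR4-NOT was not examined. PAN3, a partner of the deadenylase PAN2, was at -0.36 on the log2 scale and PAN2 at 0.22 (limma adjusted p = 0.365 and 0.608), and 1 of the 5 genes had an unadjusted limma p under 0.05, where 13.0% of all genes did (2318 of 17778). The median log2 difference was 0.05.

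Of 18 measured decapping and 5′ to 3′ decay genes, 3 had an unadjusted limma p under 0.05, against the same 13.0% of all genes, and none passed the adjustment. XRN2, the nuclear 5′ to 3′ exonuclease, read 13.04 and 13.12 in berberine samples, against 12.72 and 12.69 in controls, a log2 difference of 0.38 (limma adjusted p = 0.323). LSM1, of the ring that binds shortened tails, was at 0.91 (limma adjusted p = 0.332), while its second, dim probe was at -0.42. The list's median was 0.08.

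Of 16 measured genes of the exosome and its SKI helper complex, 1 had an unadjusted limma p under 0.05, against 13.0% of all genes. The listed symbol MPP6 was left out of the 16, since the annotation names the exosome cofactor MPHOSPH6 by a probe of its own. The 1 gene was SKIV2L, the helicase of the SKI complex, with 8.85 and 8.65 in berberine samples, against 10.07 and 9.62 in controls. Its log2 difference was -1.10 (limma adjusted p = 0.216, with the trend 0.0769). By its mean, SKIV2L was the 1 gene of the list above the background mark. Both its berberine values lay below that mark, so the difference is one of signal and not a measured fold of the mRNA. EXOSC8, an exosome ring subunit, was at -0.35 (limma adjusted p = 0.447).

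Of 23 measured other AU-rich binding and mRNA stability proteins, none passed limma and 3 had an unadjusted limma p under 0.05, which is the 13.0% found over all genes. FUBP1, a KH-domain relative of KHSRP, read 10.20 and 10.34 in berberine samples, against 10.77 and 10.95 in controls, a log2 difference of -0.59 (limma adjusted p = 0.26). CPEB4, which acts on poly(A) tails, was at 0.96 (limma adjusted p = 0.153), below the background mark. CELF1 spanned 1.39 and 8.20 in the berberine samples, so its difference of -2.32 is that of 1 array. The list's median log2 difference was -0.07.

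Of the kinases and phosphatases that act on ZFP36, 13 of 20 were measured, and all had means below the background mark. MAPK13, the delta form of p38, rose in the trend test, with 9.30 and 9.51 in berberine samples, against 8.53 and 8.42 in controls (log2 difference 0.93, limma trend adjusted p = 0.0398, without the trend 0.154, and from 0.0398 to 1.0 over 12 alternative fits). MAPK14, the main p38 form, was at 0.43, MAPKAPK2, which phosphorylates ZFP36, at 0.34, and DUSP1, the phosphatase that switches p38 off, at -0.13. These 3 passed neither test, and 3 of the 13 genes had an unadjusted limma p under 0.05, against 13.0% of all genes. MAPK11, MAPK12, MAP2K3, MAPKAPK3, PPP2CA and PPP2R1A had negative differences, and MAP2K6, MAPKAPK5 and AKT1 positive ones. The list's median log2 difference was -0.01, with a range from -0.25 to 0.93.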

How the data were processed

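Total RNA of 2 berberine and 2 control samples was measured as Cy5-labelled RNA. The deposited values are intensities on a linear scale, as whole numbers with some below 0. For scanner, background method and normalization, the sources used here name nothing. Intensities of all 26423 probes were quantile normalized, with a floor of 0, and put on the log2(value + 1) scale. Of the probes, 20377 carried 1 gene symbol, none several, and 6046 were unnamed. The probe with the highest mean stood for a gene.

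One limma model (version 3.58.1, R 4.3.3, lmFit and eBayes without a trend) covered all 17778 genes (2-sided, 2 residual degrees of freedom, Benjamini-Hochberg adjustment, threshold 0.05), and the code was tested on simulated data. An exact permutation test of 1 value cannot go below p = 0.333 here. The number of arrays limits the precision.

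The members, gene lists and motifs were chosen with earlier results of these data known, as was the olfactory receptor mark. Members got no test. From each list the text names genes past the threshold, otherwise those past it with the trend, otherwise the 2 smallest p-values. The other target genes, CELF1 and all genes of the p38 list but MAPK13 were named after their values were seen. Alternatives covered scaling, pseudocount, a filter, the variance model, probe choice, the replicate block and each sample left out. Older symbols were matched through the RefSeq table (GRCh38.p14). Figures used matplotlib 3.10.9.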

Additional observations from a re-analysis of the deposited data

How the results depend on the processing

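The count of genes past the threshold, 9, was 2 with values as deposited, 0 with median centring (2244 at an unadjusted limma p under 0.05), 251 with 50 added, 138 without the dimmest 30% of genes, 260 with the intensity trend and 0 with each probe as its own row (3101 unadjusted). It was 0 without any 1 of the 4 samples (1312 to 2763 unadjusted by limma, with a lone sample assumed to vary like the other group). With the replicate number as a block it was 0 (1878 unadjusted). Same-numbered samples correlated at 0.0904 in their deviations over 2 pairs, which does not show pairing.

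For the ZFP36 targets the count of 1 was 0 with values as deposited, median centring, each probe as its own row, the replicate block or any sample left out (9 to 12 unadjusted by limma), 8 with 50 added, 7 without the dimmest genes and 9 with the trend. For the p38 list the count of 0 was 1 with 50 added and 1 with the trend. The other counts were the same, which leaves 65 of 78.

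The ZFP36L1 difference was 1.57 as deposited and 1.45 with median centring. ZFP36L2 was at 0.83, 0.72 and, with 50 added, 0.12. Median centring gave -1.33 for the bright ELAVL1 probe and -0.65 for that of HNRNPD, whose range without single samples was -0.65 to -0.48. Leaving out either control could not move that HNRNPD value, since both controls had the same normalised value. Their tie also lowers the replicate SD of this probe. Of 56 member values under other settings 48 moved by less than 1 replicate SD, and 11 changed sign, 0 of them among the 21 of the bright probes. The cause of these shifts was not tested.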
